A study of Mus musculus with 51 samples.

Results

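The promoters of 10 germline genes were followed in mouse embryos at embryonic day 6.5: Dazl, Ddx4, Mael, Tdrd1, Tdrd5, Sycp1, Sycp3, Hormad1, Stk31 and Slc25a31. They were chosen by name, as 10 of the 20807 autosomal protein-coding genes with a promoter in the table of read density, and every peak that the allelic tables name after 1 of them was included. Genes of this kind are widely described as silenced by DNA methylation in embryonic cells. DNA methylation and RNA were not analysed here, so the values below describe histone marks only.

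The study used ultra-low-input native ChIP-seq, in which chromatin from small pools of cells is cut with micrococcal nuclease and pulled down without cross-linking. The marks were H3K4me3, found at active and poised promoters, H3K27me3, deposited by Polycomb repressive complex 2, and H3K36me3, found over transcribed gene bodies. The tissues were the epiblast, which gives rise to the fetus, and the extra-embryonic ectoderm (ExE), a precursor of the placenta, each library being made from cells pooled over several embryos. Each cross, tissue and mark had 2 libraries, which gives 36 ChIP libraries beside 15 input libraries.

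Wild-type embryos came from reciprocal crosses of the inbred strains C57BL6/Babr (B6) and CAST/EiJ (CAST), written mother first as B6/CAST and CAST/B6. In matDKO/CAST embryos the mother was homozygous for floxed Dnmt3a and Dnmt3b and carried Zp3-cre, which is active in growing oocytes, and the father was CAST. The oocyte therefore lacked both de novo DNA methyltransferases, while the embryo kept the paternal copies of both genes. These mothers were of mixed B6 and 129 background, so B6/CAST, which shares the CAST father, served as the control but does not match the maternal genome exactly.

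As background, germline genes carry out steps that are particular to germ cells, such as meiotic chromosome pairing and the silencing of transposons by PIWI-interacting RNAs. Many of their promoters are rich in CpG dinucleotides and hold an E-box that binds the MGA and MAX proteins or a site for E2F6, through which the variant Polycomb complex PRC1.6 is recruited. In the post-implantation embryo DNMT3B methylates such promoters, and germ cells later lose this methylation. PRC1.6 together with DNA methylation keeps these genes off outside the germline.

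All 10 start sites lay in CpG-rich sequence, with an observed-to-expected CpG ratio between 0.652 and 0.876 over 1 kb, against a median of 0.569 over all promoters. In the 250 bases before the RefSeq start (GRCm38), the members held a median of 18.5 CpGs against 6 over 25748 promoters. The E-box CACGTG, which reads the same on both strands, was found in 8 of the 10 members, all but Dazl and Tdrd5, and in 6.04% of all promoters. The letters TCCCGC, searched on both strands as the core of the E2F6 site, were found in Ddx4, Mael, Sycp3, Tdrd5 and Hormad1, and in 17.1% of all promoters. A match describes these letters only and was not tested for binding.

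The 150 bases before the outermost annotated start are shown for 6 members, 5′ to 3′ on the strand of the gene and in GRCm38, as examples with and without these motifs. Capitals mark CACGTG and TCCCGC or its reverse complement GCGGGA. Stk31 was the member whose H3K4me3 differed between the tissues, Dazl like Stk31 had less H3K27me3 in ExE, Sycp1 had an H3K4me3 call between its alleles in 1 cross that was lost without either library, Sycp3 and Hormad1 each hold 2 E-boxes and an E2F6 core, and Tdrd5 stood apart by its H3K4me3 level and has neither in this stretch. The other 4 starts lie at chromosome 13, position 112652475 (Ddx4, minus strand), chromosome 1, position 166238747 (Mael, minus strand), chromosome 19, position 56826209 (Tdrd1, plus strand) and chromosome 3, position 40708855 (Slc25a31, plus strand).
Stk31, chr6:49395389-49395538, plus strand: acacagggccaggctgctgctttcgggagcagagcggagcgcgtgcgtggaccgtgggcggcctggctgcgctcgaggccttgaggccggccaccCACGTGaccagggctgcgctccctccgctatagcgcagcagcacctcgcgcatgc
Dazl, chr17:50293637-50293786, minus strand: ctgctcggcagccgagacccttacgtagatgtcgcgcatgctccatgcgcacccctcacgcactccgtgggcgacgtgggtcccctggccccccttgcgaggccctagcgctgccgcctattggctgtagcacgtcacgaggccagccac
Sycp1, chr3:102936101-102936250, minus strand: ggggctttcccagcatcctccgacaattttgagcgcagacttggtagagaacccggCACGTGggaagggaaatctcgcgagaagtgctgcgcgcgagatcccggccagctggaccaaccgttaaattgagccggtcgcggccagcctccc
Sycp3, chr10:88459419-88459568, plus strand: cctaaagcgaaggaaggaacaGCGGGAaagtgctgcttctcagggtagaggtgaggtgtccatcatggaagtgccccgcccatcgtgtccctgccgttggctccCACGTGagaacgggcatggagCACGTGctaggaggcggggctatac
Hormad1, chr3:95559527-95559676, plus strand: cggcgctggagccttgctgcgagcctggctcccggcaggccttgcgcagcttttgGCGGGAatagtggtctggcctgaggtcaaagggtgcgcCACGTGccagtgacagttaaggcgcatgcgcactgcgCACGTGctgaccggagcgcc
Tdrd5, chr1:156303665-156303814, minus strand: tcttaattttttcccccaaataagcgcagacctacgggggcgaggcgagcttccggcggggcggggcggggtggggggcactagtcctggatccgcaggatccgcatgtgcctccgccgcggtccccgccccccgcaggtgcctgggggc

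Library depth, counted as reads over all 1 kb windows, ran from 4.01 to 17.9 M reads for H3K4me3 and from 3.68 to 22.9 M for H3K27me3 (M, 1e6). H3K36me3 libraries were the shallowest, at 2.09 to 12.6 M. Levels are given as RPKM, reads per kilobase scaled to the mapped reads of the library, averaged over the windows within 1 kb of the GENCODE start. At the promoters of known markers, 7 of 9 epiblast markers had lower H3K4me3 in ExE, and of 10 ExE markers 4 had higher H3K4me3 there and 1 lower. Visceral endoderm markers also had more H3K4me3 in ExE, with 7 of 11 higher and 1 lower, and their summed level was 76.6 to 125.0 RPKM in the 4 wild-type ExE libraries against 56.9 to 95.4 in the epiblast, with no marker at 0. Of 6 decidua markers 2 were lower in ExE, and of 6 primordial germ cell markers 1 was higher and 1 lower. The part of these cells in the results below was not tested, and in pooled tissue fewer cells with a mark cannot be told apart from less of the mark per cell. Libraries of a group are separate preparations as labelled, so the p-values measure the spread between them.

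In wild-type embryos 9 of the 10 germline promoters carried little H3K4me3 in either tissue, while Tdrd5 carried more than all the others. Tdrd5, a Tudor protein of the piRNA pathway, had a mean of 11.3 ± 1.16 RPKM (SD, n = 4) in the epiblast and 9.13 ± 1.18 in ExE. The next highest was Sycp3, a core protein of the synaptonemal complex, at 2.84 ± 0.851 in the epiblast and 2.98 ± 1.84 in ExE. No Sycp3 library overlapped any Tdrd5 library. Among CpG-rich promoters, whose median was 20.1 RPKM in the epiblast and 18.99 in ExE, 17.1% and 16.1% lay below Tdrd5. Between 0.529% and 2.10% in the epiblast, and between 0.570% and 2.87% in ExE, lay below each of the other 9 members.

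Dazl, which encodes an RNA-binding protein that licenses germ cells for sex-specific development, followed with 2.04 ± 0.816 RPKM (SD, n = 4) in the epiblast and 2.75 ± 1.05 in ExE. Below it in ExE came Stk31, a Tudor-domain kinase-like protein, at 1.87 ± 0.704, Tdrd1, a Tudor protein of the piRNA granules, at 1.58 ± 0.844, Sycp1, the transverse filament of the synaptonemal complex, at 1.25 ± 0.538, and Ddx4, the germ cell RNA helicase also called Vasa, at 1.16 ± 0.567. Each of these neighbours overlapped the next in its library values. The lowest members in ExE were Slc25a31, a mitochondrial ADP/ATP carrier of male germ cells, at 0.714 ± 0.419, Hormad1, a meiotic HORMA-domain protein that marks unpaired chromosome axes, at 0.603 ± 0.115, and Mael, a piRNA pathway protein of transposon silencing, at 0.396 ± 0.146. For Mael that was 9 to 29 reads per wild-type ExE library, and 3 to 10 in the epiblast.

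The lowest members were close to the input libraries or below them. In the epiblast Mael, Hormad1 and Slc25a31 had 0.193, 0.348 and 0.459 RPKM of H3K4me3 against 0.432, 0.624 and 0.471 in wild-type input. In ExE Mael and Hormad1 had input levels of 0.390 and 0.560, beside their H3K4me3 of 0.396 and 0.603.

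In ExE the highest of the 11 windows within about 5 kb was the one holding the start for Ddx4, Mael, Tdrd5, Stk31, Slc25a31 and Hormad1, and an adjacent one for Dazl, Sycp1 and Sycp3. Stk31 reached 4.42 RPKM in its start window against a median of 0.178 over its 11 windows, and Mael reached 0.746 against 0.178. At Tdrd1 the highest window, with 33.3 RPKM, lay 4.71 kb upstream near the start of the divergent gene Ccdc186, which is 4019 bp away, while its own start window held 3.44. The H3K4me3 peak that covers the Sycp3 start carries the name of the neighbour Chpt1, whose gene overlaps all of Sycp3 on the opposite strand. The peak over the Tdrd1 start carries the name A630007B06Rik and also spans the Ccdc186 start. ChIP reads have no strand, so reads over Sycp3 cannot be assigned by strand to Sycp3 or Chpt1, which matters for gene body H3K36me3. The annotated Chpt1 start, at 88504073, lies outside the peak over the Sycp3 start at 88459569.

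**Figure D1:**
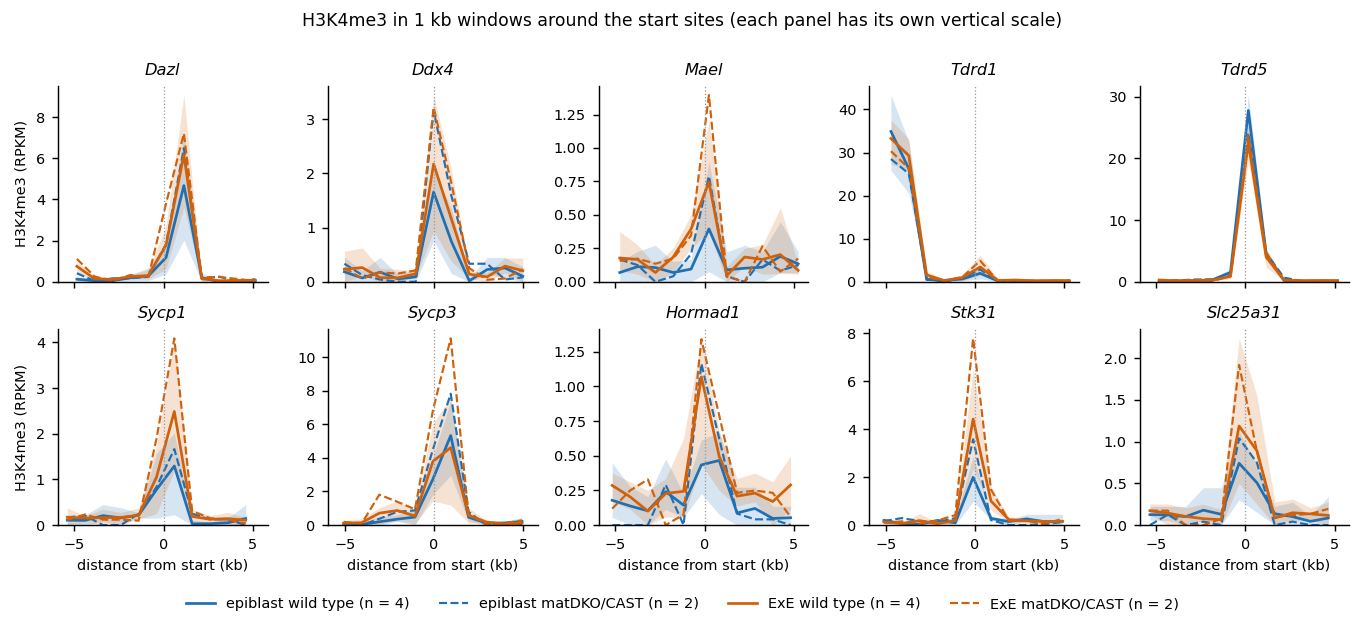
H3K4me3 (RPKM) in 1 kb windows against the distance of the window centre from the start site in kb, positive downstream, for each of the 10 genes. Solid lines are means of 4 wild-type libraries with their lowest to highest value shaded, and dashed lines are means of 2 matDKO/CAST libraries; vertical scales differ between genes, with Tdrd5 reaching 27.8 RPKM in its epiblast start window and Mael 0.395.

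The first comparison asked whether the promoters of these genes differed between ExE and epiblast. Stk31 was the only member whose H3K4me3 passed the test. Its promoter had 2.75 and 1.75 RPKM in the B6/CAST ExE libraries and 1.04 and 1.94 in the CAST/B6 ones, against 1.12 and 0.887 in B6/CAST epiblast and 0.405 and 0.747 in CAST/B6 epiblast. Within each cross both ExE libraries lay above both epiblast libraries, but over the 2 crosses the lowest ExE library, from CAST/B6, fell below the highest epiblast library, from B6/CAST. The difference was 0.86 on the log2 scale of RPKM plus 0.5 (SE 0.21, adjusted p = 0.00307, limma over 20581 promoters). This scale understates changes of low values: edgeR on the reads recovered from the RPKM gave 1.43 (adjusted p = 7.76e-06). The call was lost without B6/CAST ExE replicate 1 (0.73, limma adjusted p = 0.0516), without CAST/B6 ExE replicate 2 (0.70, limma adjusted p = 0.0514) and within B6/CAST alone (0.85, limma adjusted p = 0.104) or CAST/B6 alone (0.87, limma adjusted p = 0.0720), where 2 libraries face 2.

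Over all promoters 3.47% were called higher in ExE and 9.73% lower, and a single call among 10 does not set the members apart from it. Of the 10 members 8 had a positive difference, and the median was 0.36 against −0.02 over all promoters. No member had every ExE library above every epiblast library, against 3.16% of all promoters. At an unadjusted p under 0.05, limma gave 5 members, all higher in ExE, where 7.20% of all promoters were higher and 14.0% lower at this threshold. They were Stk31, Tdrd1 (0.54, adjusted p = 0.0702), Sycp1 (0.50, adjusted p = 0.172), Hormad1 (0.38, adjusted p = 0.154) and Mael (0.37, adjusted p = 0.118). Tdrd5 differed by −0.29 (95% confidence interval −0.66 to 0.07) and Sycp3 by −0.08 (−0.52 to 0.35).

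How many members passed depended on the scaling and on single libraries. With edgeR and TMM factors 4 members were higher in ExE (Dazl, Sycp1, Tdrd1 and Stk31), with DESeq2 2 (Tdrd1 and Stk31), and with quantile normalization 3 (Dazl, Tdrd1 and Stk31). The same settings changed the split over all promoters from 715 higher and 2002 lower to 1578 and 2912 with edgeR, 1626 and 3010 with DESeq2, and 2448 and 2389 with quantile normalization. With the replicate number as a block Sycp1 passed as well (0.75, limma adjusted p = 0.0108) beside Stk31 (0.93), where 602 promoters were higher and 1753 lower. Without CAST/B6 epiblast replicate 3, in which Sycp1 stood at 1.27 RPKM against 0.177 to 0.876 in the other epiblast libraries, Mael, Sycp1 and Slc25a31 passed beside Stk31, where 739 promoters were higher and 2103 lower. None of these settings called a member lower in ExE.

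**Figure D2:**
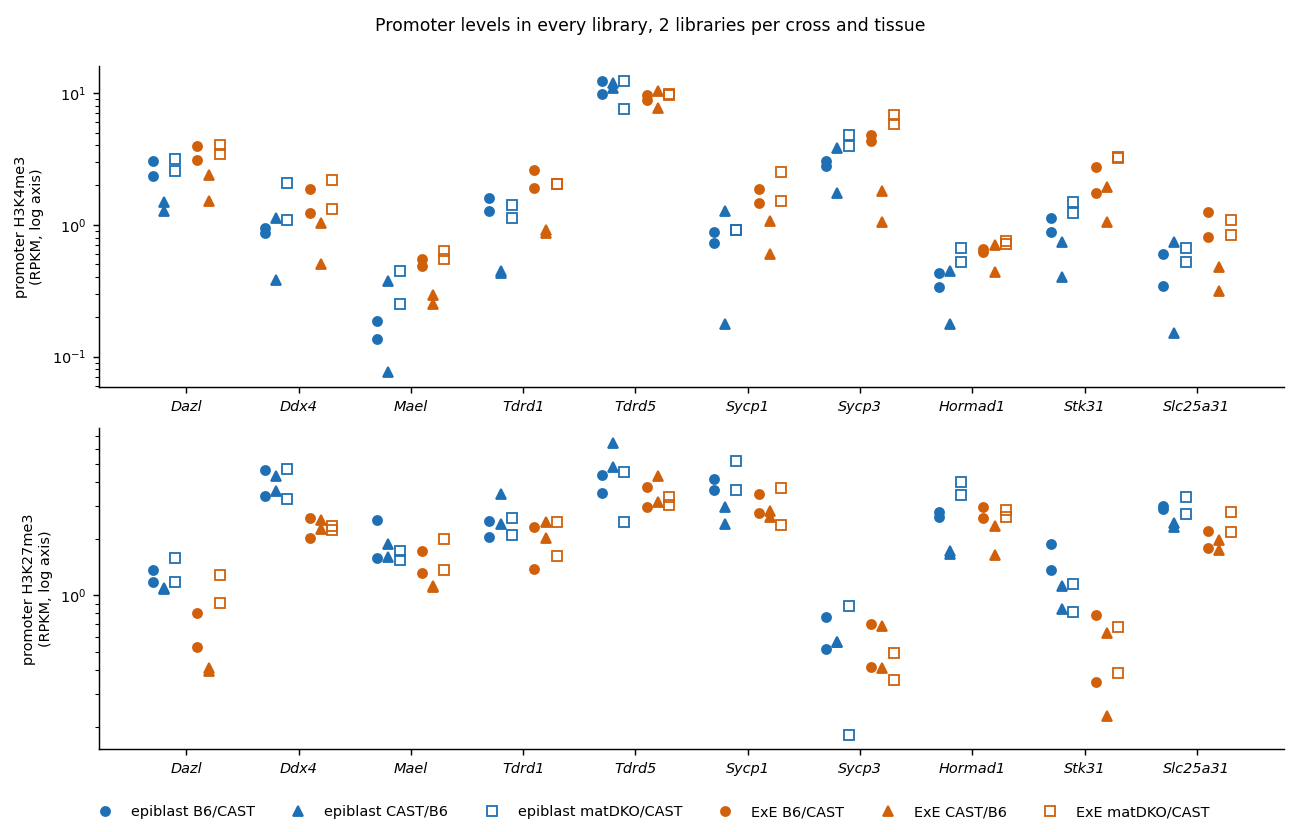
Promoter H3K4me3 (top) and H3K27me3 (bottom) in RPKM on log axes for the 10 genes, with 1 point per library, 2 libraries per cross and tissue. Blue is epiblast and orange ExE; circles are B6/CAST, triangles CAST/B6 and open squares matDKO/CAST. Stk31 shows the ExE points above the epiblast points of the same cross for H3K4me3 and below them for H3K27me3.

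The 2 wild-type crosses also differed from each other at these promoters. In ExE both CAST/B6 libraries lay below both B6/CAST libraries for 7 members (Dazl, Ddx4, Mael, Sycp3, Sycp1, Tdrd1 and Slc25a31), which was true of 21.8% of all promoters, and in the epiblast for 3 members (Dazl, Tdrd1 and Stk31), against 18.1%. Sycp3 had 4.78 and 4.30 RPKM in B6/CAST ExE and 1.04 and 1.80 in CAST/B6 ExE. The deposited B6/CAST ExE list of 42433 peaks had an H3K4me3 peak over all 10 starts, and the shorter CAST/B6 ExE list of 24691 peaks over 6, without Ddx4, Mael, Slc25a31 and Hormad1. Hormad1 lacked a peak although its levels overlapped between the crosses, and Dazl, Sycp3, Sycp1 and Tdrd1 kept theirs. In the epiblast the lists covered 7 and 6 starts. Over all CpG-rich starts the lists covered 99.0% to 99.4%. Cross and library preparation cannot be told apart here.

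H3K27me3 was present at most of these promoters and was lower in ExE at 3 of them. In the epiblast the mean ranged from 0.603 RPKM at Sycp3 to 4.79 at Tdrd5, and 65.8% to 95.4% of all promoters lay below each member. The order below Tdrd5 was Ddx4 (3.97), Sycp1 (3.28), Slc25a31 (2.65), Tdrd1 (2.60), Hormad1 (2.19), Mael (1.89), Stk31 (1.30) and Dazl (1.17), and only Sycp3 was separated from its neighbour in every library. Epiblast H3K27me3 peaks covered the start of 9 members in B6/CAST (all but Sycp3) and 8 in CAST/B6 (all but Sycp3 and Stk31), against 21.6% and 24.1% of all starts and 24.5% and 26.9% of CpG-rich ones. ExE peaks covered 7 in each cross, without Dazl, Sycp3 and Stk31, against 31.9% and 36.3% of all starts.

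In the epiblast the highest H3K27me3 window was the one holding the start for 6 members and an adjacent one for the other 4. There Ddx4 reached 4.39 RPKM and Mael 2.65 in the start window. At Tdrd5 the start window, where its H3K4me3 was highest, held 1.68 RPKM of H3K27me3 in the epiblast and 1.70 in ExE, while the window 1.16 kb downstream held 7.50 in the epiblast and that 0.837 kb upstream held 4.47 in ExE.

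**Figure D3:**
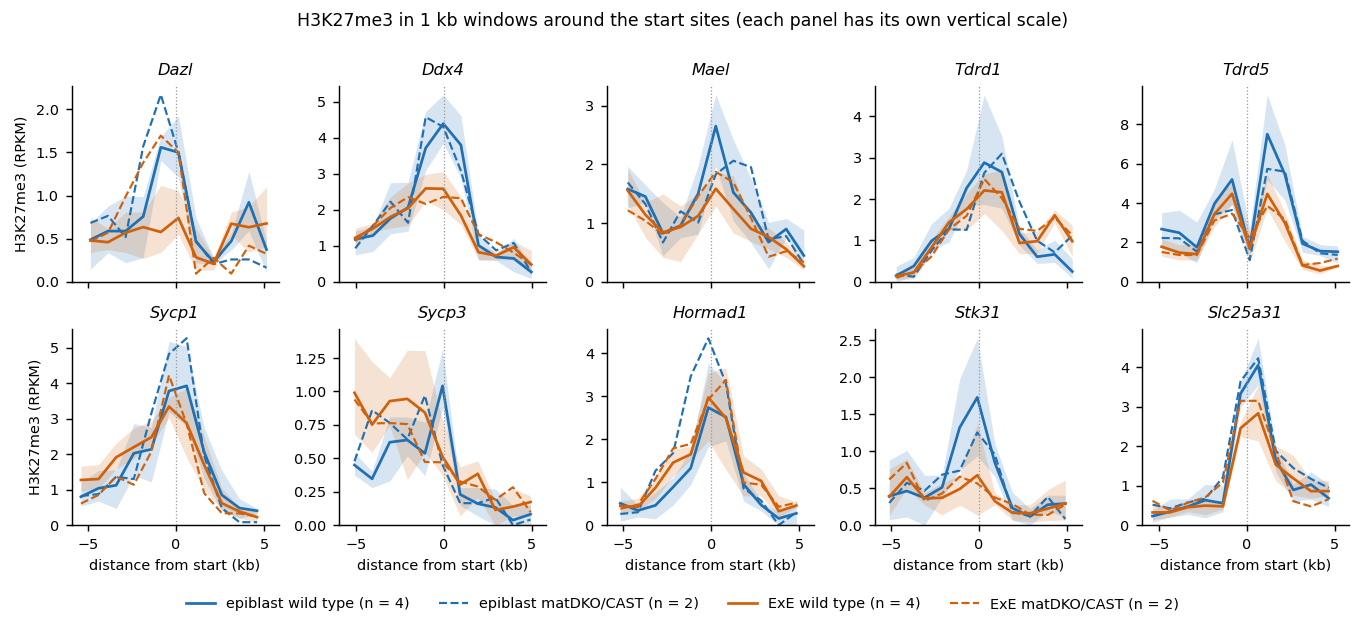
H3K27me3 (RPKM) in 1 kb windows against the distance of the window centre from the start in kb, positive downstream, drawn as for H3K4me3 with separate vertical scales. The solid blue epiblast line lies above the solid orange ExE line at the starts of Dazl, Ddx4 and Stk31, and at Tdrd5 both lines dip in the start window, to 1.68 and 1.70 RPKM.

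At Stk31, H3K27me3 stood at 1.36 and 1.87 RPKM in B6/CAST epiblast and 1.12 and 0.842 in CAST/B6 epiblast, against 0.787 and 0.344 in B6/CAST ExE and 0.626 and 0.227 in CAST/B6 ExE. All 4 ExE libraries lay below all 4 epiblast libraries, and the difference was −0.86 (SE 0.17, limma adjusted p = 0.000284). By limma Stk31 was called for both marks, and with edgeR and TMM factors or quantile normalization Dazl was also called higher for H3K4me3. On recovered reads the H3K27me3 difference was −1.24 with edgeR and TMM factors, and −1.30 with library totals.

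Dazl had 1.36 and 1.17 RPKM of H3K27me3 in B6/CAST epiblast and 1.08 and 1.09 in CAST/B6 epiblast, against 0.808 and 0.528 in B6/CAST ExE and 0.393 and 0.408 in CAST/B6 ExE. The groups did not overlap and differed by −0.71 (SE 0.16, limma adjusted p = 0.00101). The difference was −1.13 with edgeR, and −0.24 over 5 kb on each side of the start, where it no longer passed (limma adjusted p = 0.0894).

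Ddx4 had 3.36 and 4.62 RPKM in B6/CAST epiblast and 4.31 and 3.59 in CAST/B6 epiblast, against 2.59 and 2.02 in B6/CAST ExE and 2.50 and 2.24 in CAST/B6 ExE. These did not overlap either, and the difference was −0.65 (SE 0.17, limma adjusted p = 0.00515). It missed the threshold without B6/CAST epiblast replicate 2 (−0.55, limma adjusted p = 0.0607) and over 5 kb on each side (−0.25, limma adjusted p = 0.171). Within B6/CAST alone Dazl differed by −0.60 (limma adjusted p = 0.100) and Ddx4 by −0.67 (limma adjusted p = 0.0892), and within CAST/B6 alone Ddx4 differed by −0.63 (limma adjusted p = 0.0982) and Stk31 by −0.71 (limma adjusted p = 0.0581).

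Over all promoters 11.5% were called lower in ExE and 7.98% higher, against 3 and 0 of the 10 members. The median member difference was −0.37 against −0.05 over all promoters, and 9 of 10 differences were negative. Every ExE library lay below every epiblast library at 4 members, Dazl, Ddx4, Stk31 and Slc25a31, against 12.2% of all promoters. With matDKO/CAST added, 6 libraries against 6, this held at Ddx4 and Stk31, 2 members, against 3.37%. Visceral endoderm markers were lower in ExE at 5 of 11 promoters and higher at 0, with a sum of 10.8 to 17.7 RPKM against 27.3 to 44.2 in the epiblast. Of the other marker lists, 4 of 9 epiblast markers were higher and none lower (sum 15.2 to 22.5 RPKM against 8.06 to 18.7). Lower in ExE were 4 of 6 primordial germ cell markers (sum 12.5 to 16.7 RPKM against 20.2 to 37.5) and 3 of 6 decidua markers (19.7 to 25.6 against 31.1 to 49.2), with none higher, and 6 of 10 ExE markers with 1 higher. The part of these cells in the H3K27me3 differences was not tested. At an unadjusted p under 0.05 limma added Slc25a31 (−0.38, adjusted p = 0.106) and Mael (−0.39, adjusted p = 0.0951), which made 5 members lower, beside 18.5% of all promoters lower and 12.6% higher. Hormad1 differed by 0.10 (95% confidence interval −0.24 to 0.43), Sycp3 by −0.08 (−0.43 to 0.28) and Sycp1 by −0.14 (−0.49 to 0.22).

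The second comparison asked whether these promoters differed when the oocyte had lacked DNMT3A and DNMT3B. No member passed the test for H3K4me3 or H3K27me3 in either tissue, and under 1% of promoters did. For H3K4me3 in ExE 0.00486% of promoters were called higher and 0.0680% lower in matDKO/CAST than in B6/CAST, and in the epiblast 0.0243% and 0.0340%. For H3K27me3 the shares were 0.0145% and 0% in ExE, and 0.0242% and 0.175% in the epiblast. With 2 libraries on each side the intervals were wide, and the edgeR and DESeq2 fits called no member either. At an unadjusted p under 0.05, limma gave no member for H3K4me3 in either tissue, none for H3K27me3 in ExE and Stk31, lower, for H3K27me3 in the epiblast. At that threshold H3K4me3 was higher at 0.428% of promoters and lower at 1.51% in ExE, and at 1.81% and 0.408% in the epiblast, and H3K27me3 at 3.79% and 1.66% in ExE, and at 2.15% and 13.1% in the epiblast.

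For H3K4me3 in the epiblast, Sycp3 had 4.79 and 3.99 RPKM in matDKO/CAST against 2.80 and 3.02 in B6/CAST, a difference of 0.52 (95% confidence interval −0.10 to 1.13). Ddx4 had 1.08 and 2.08 against 0.951 and 0.864, also 0.52 (−0.11 to 1.16). For this mark both matDKO/CAST libraries lay above both B6/CAST libraries for 6 members in the epiblast, Ddx4, Mael, Sycp3, Sycp1, Stk31 and Hormad1, against 7.32% of all promoters. In ExE this held for 4 members, Sycp3, Tdrd5, Stk31 and Hormad1, against 8.12%. For no member did both lie below, against 6.86% of promoters in the epiblast and 14.4% in ExE. Stk31 in ExE had 3.21 and 3.24 RPKM against 2.75 and 1.75, a difference of 0.46 (−0.15 to 1.07). The median H3K4me3 difference over members was 0.25 in the epiblast and 0.11 in ExE, against −0.01 over all promoters in both. Tdrd1 and Tdrd5 went the other way in the epiblast, by −0.12 (−0.69 to 0.45) and −0.18 (−0.69 to 0.33).

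For H3K27me3 the member median was 0.01 in the epiblast and −0.01 in ExE, against −0.12 and 0.02 over all promoters, and 5 and 4 of the 10 differences were positive. The largest positive value was at Dazl in ExE, with 1.29 and 0.905 RPKM in matDKO/CAST against 0.808 and 0.528 in B6/CAST, a difference of 0.45 (95% confidence interval −0.01 to 0.91, adjusted p = 0.916 by limma). Hormad1 in the epiblast had 3.42 and 3.99 RPKM against 2.62 and 2.79, a difference of 0.39 (−0.08 to 0.86, adjusted p = 0.423 by limma). Against both wild-type crosses together Hormad1 passed (0.66, limma adjusted p = 0.0385), with 4 control libraries in place of 2, where 93 of 20625 promoters were called higher and 1338 lower. The CAST/B6 epiblast libraries stood at 1.66 and 1.72 RPKM. Stk31 in the epiblast had 1.15 and 0.816 against 1.36 and 1.87, a difference of −0.51 (−1.01 to −0.01, adjusted p = 0.313 by limma).

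**Figure D4:**
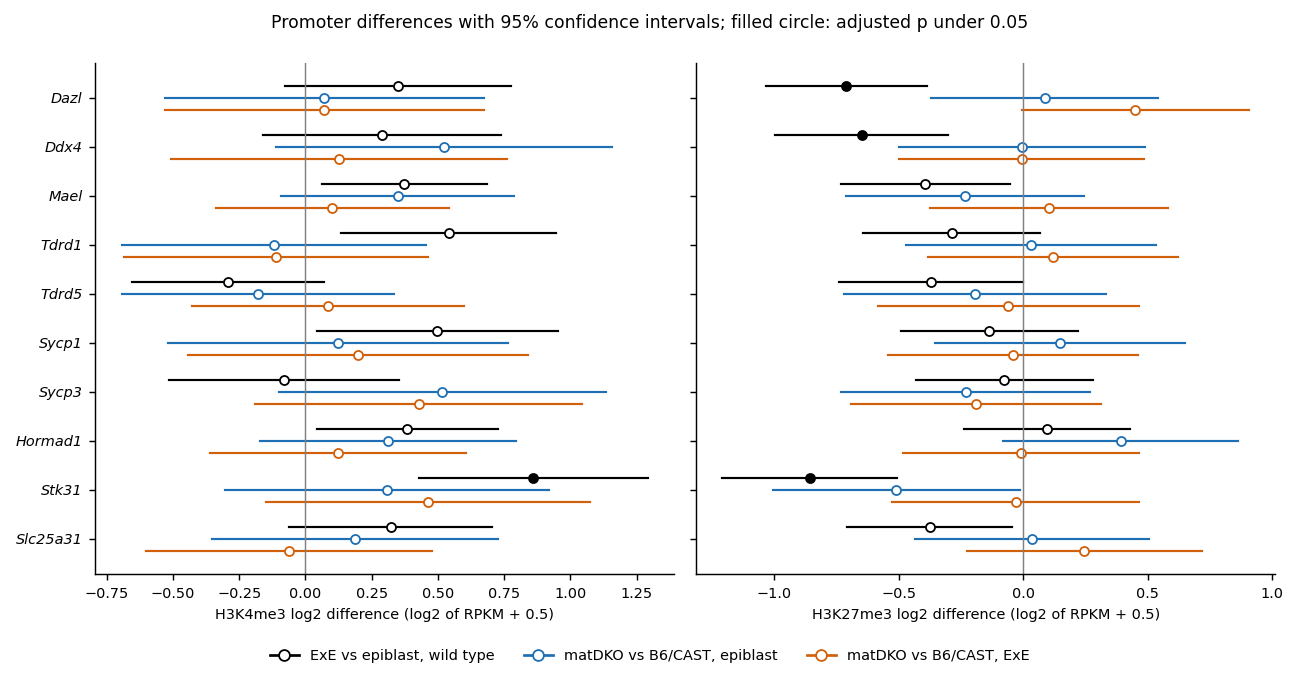
Differences on the log2 scale of RPKM plus 0.5, with 95% confidence intervals, for H3K4me3 (left) and H3K27me3 (right). Black is ExE minus epiblast in wild type, blue matDKO/CAST minus B6/CAST in the epiblast and orange the same in ExE; filled circles passed an adjusted p of 0.05. The filled circles are Stk31 for H3K4me3 and Dazl, Ddx4 and Stk31 for H3K27me3, all in the tissue comparison.

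The third comparison repeated the contrast between the tissues within matDKO/CAST. Stk31 H3K4me3 was again higher in ExE, at 3.21 and 3.24 RPKM against 1.22 and 1.50 in the epiblast, a difference of 1.01 (SE 0.30, limma adjusted p = 0.0274), where 1.22% of promoters were called higher and 6.29% lower. With the replicate number as a block the difference was 0.88 and did not pass (limma adjusted p = 0.175), nor did it without matDKO/CAST epiblast replicate 1, ExE replicate 2 or ExE replicate 3 (limma adjusted p = 0.127 to 0.176). Sycp1 differed by 0.81 (limma adjusted p = 0.139) and all 10 differences were positive, with a median of 0.39 against 0.00 over all promoters.

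For H3K27me3 no member passed within matDKO/CAST by limma, against 3.21% of promoters called higher and 2.56% lower. Ddx4 had 2.33 and 2.23 RPKM in ExE against 4.71 and 3.27 in the epiblast, a difference of −0.67 (limma adjusted p = 0.0902), close to its wild-type value. It passed with edgeR (−1.01, adjusted p = 0.00466), DESeq2 (−0.99, adjusted p = 0.00348) and quantile normalization (−0.67, limma adjusted p = 0.00889). At an unadjusted p under 0.05, limma gave Ddx4 and Stk31, both lower in ExE, beside 7.26% of promoters lower and 14.8% higher. Whether the difference between the tissues itself differed between matDKO/CAST and B6/CAST alone was tested as an interaction, and no member passed. For H3K4me3 this was called at 0% of promoters in either direction, and for H3K27me3 at 0.00970% higher and 0% lower. The interaction was 0.16 for Stk31 H3K4me3 (95% confidence interval −0.71 to 1.02) and 0.36 for Dazl H3K27me3 (−0.28 to 1.01).

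H3K36me3 over the gene body is a mark of transcription and was low at most members. In wild type, Ddx4 rose from 0.397 ± 0.0353 RPKM (SD, n = 4) in the epiblast to 0.716 ± 0.148 in ExE (0.43, limma adjusted p = 0.00251), Tdrd5 from 0.588 ± 0.0872 to 1.02 ± 0.153 (0.48, limma adjusted p = 0.00135) and Stk31 from 0.407 ± 0.0231 to 0.654 ± 0.138 (0.34, limma adjusted p = 0.00678). At these 3 members every ExE library lay above every epiblast library, against 25.3% of all genes. The call for Sycp3, from 0.720 ± 0.158 to 1.08 ± 0.516 (0.32, limma adjusted p = 0.0312), was lost without any of 6 of the 8 wild-type libraries (limma adjusted p = 0.0534 to 0.106). Its B6/CAST ExE libraries had 1.41 and 1.63 RPKM while the CAST/B6 ones had 0.567 and 0.719, against an epiblast range of 0.583 to 0.947. Chpt1 overlaps all of Sycp3, so H3K36me3 over Sycp3 cannot be told apart from that of Chpt1, in wild type or matDKO/CAST.

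These 4 calls of 10 stand against a background in which 32.0% of genes were called higher in ExE and 6.39% lower. The median over all genes was itself shifted by 0.11, and the median member differed by 0.06. All 4 called members lay above that shift. Of the marker lists, 8 of 10 visceral endoderm markers (sum 12.5 to 19.8 RPKM in ExE against 5.54 to 7.13 in the epiblast) and 9 of 10 ExE markers were higher and none lower, 6 of 7 epiblast markers were lower, 1 of 6 primordial germ cell markers was higher and 1 lower, and no decidua marker passed. The part of these cells in the H3K36me3 differences was not tested. Over all genes the split was 6070 higher and 1210 lower, against 3918 and 4084 with edgeR and TMM factors, 3485 and 2919 with DESeq2, and 1042 and 1394 with quantile normalization. Under quantile normalization 1 member passed, Ddx4, and the Sycp3 difference turned to −0.0012. With edgeR and DESeq2 Sycp3 did not pass (adjusted p = 0.228 and 0.301) and 1 member was called lower. In CAST/B6 alone no member passed.

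In matDKO/CAST the gene bodies of Ddx4 (0.42, limma adjusted p = 0.0323), Sycp3 (0.58, limma adjusted p = 0.0333) and Tdrd5 (0.59, limma adjusted p = 0.0136) were higher in ExE, where 12.1% of genes were called higher and 1.59% lower. Mael was lower, at 0.229 and 0.192 RPKM in ExE against 0.342 and 0.316 in the epiblast (−0.22, limma adjusted p = 0.0478), and in wild type it differed by −0.12 (limma adjusted p = 0.0608). Leaving out single libraries left between 0 and 4 of these calls, with 0 left without matDKO/CAST epiblast replicate 2 and 1 or 2 without each of the other 3 matDKO/CAST libraries. Of the wild-type libraries, which share the estimate of the spread, all 4 calls were left without either B6/CAST epiblast library and 1, Tdrd5, without each of the other 6. Between matDKO/CAST and B6/CAST no gene body passed, member or not, with 0% called in each direction in both tissues. At an unadjusted p under 0.05, limma gave Tdrd1, higher, in ExE, beside 4.60% of genes higher and 12.8% lower, and Dazl, lower, in the epiblast, beside 5.22% and 3.59%. The edgeR and DESeq2 fits called no member.

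The members were set beside 46 other germline genes listed by name. Of these, 9 had higher and 3 lower H3K4me3 in wild-type ExE, beside 3.47% and 9.73% of all promoters, and 5 and 0 in matDKO/CAST, beside 1.22% and 6.29%, with a wild-type median of 0.09 against −0.02 over all promoters. The largest differences were at Tex19.1, a regulator of transposons in germ cells and placenta, with 8.22 RPKM in ExE against 1.55 (2.36, limma adjusted p = 1.64e-09), Tdrd7, a Tudor protein, with 4.68 against 1.59 (1.34, limma adjusted p = 5.94e-06), and Hormad2, a paralog of Hormad1, which was lower at 1.83 against 4.32 (−1.07, limma adjusted p = 0.000185). H3K27me3 was lower in ExE at 6 of the 46 and higher at 0, beside 11.5% and 7.98% of all promoters. For H3K36me3, 7 of 44 were higher and 1 lower, beside 32.0% and 6.39% of all genes.

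Genes of the repressors were compared in the same way. Of 14 PRC1.6 subunits 1 had lower H3K4me3 in wild-type ExE, Mga, the subunit that binds the E-box with MAX, with 10.9 RPKM against 19.4 (−0.82, limma adjusted p = 0.000986), and 3 had lower H3K27me3. None of 13 genes of DNA and H3K9 methylation passed for H3K4me3 in either direction in wild type, and for H3K27me3 1 was higher and 1 lower. For H3K36me3 7 of the 14 and 4 of the 13 were higher and none lower, beside the 32.0% of all genes.

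The fourth comparison asked whether the 2 parental alleles differed. The allelic tables hold 60 peaks named for members, of which 36 had at least 20 allele-assigned reads in a wild-type column and were tested. No member peak was called imprinted, that is biased to the same parent in both crosses, whereas over all informative peaks the H3K4me3 share was 0.108% in epiblast and 0.319% in ExE, the H3K27me3 share 0.325% and 1.35%, and the H3K36me3 share 0.0632% and 0.251%. Strain-specific calls, to the same strain in both crosses, covered 0.841% and 3.96% of peaks with H3K4me3, 1.01% and 4.32% with H3K27me3, and 0.424% and 1.10% with H3K36me3. By edgeR 1 member peak was strain-specific.

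That peak was the ExE H3K27me3 domain over the Mael start, at chr1:166234500-166329000, which also covers the start of Ildr2. The paternal share was 41.5% of 1492 reads in B6/CAST (exact 95% interval 39.0% to 44.0%, edgeR adjusted p = 0.000983) and 56.3% of 2199 in CAST/B6 (54.2% to 58.4%, edgeR adjusted p = 0.00171). In every wild-type library the B6 allele held more reads, and in matDKO/CAST the CAST father again had the smaller share, 41.0% of 1050. These are raw read shares. Taken whole, CAST/B6 ExE H3K27me3 libraries already leaned to the father (53.5% and 56.2% paternal), as did those of B6/CAST (52.7% and 55.0%). The 56.3% at this peak was thus close to the CAST/B6 library values. Only the B6/CAST share lay clearly apart from its libraries, below them. Whole matDKO/CAST libraries had 48.3% and 49.3%, above the 41.0% here. The intervals cover counting error only. The call was lost without ExE replicate 1 of B6/CAST (edgeR adjusted p = 0.131) or of CAST/B6 (edgeR adjusted p = 0.185), and DESeq2 did not make it (adjusted p = 0.0866 and 0.0796). In single crosses 11.0% of ExE H3K27me3 peaks were called in B6/CAST and 21.8% in CAST/B6.

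Sycp1 showed the opposite strain direction for H3K4me3 at its start in ExE, at chr3:102934500-102937000. The CAST father gave 37 of 55 reads and 21 of 29 in the B6/CAST libraries, a paternal share of 69.0% (exact 95% interval 58.0% to 78.7%, edgeR adjusted p = 0.0206), where 13.6% of peaks were called. In CAST/B6 the paternal share was 25.7% of 35 reads (12.5% to 43.3%) and did not pass (edgeR adjusted p = 0.0981). The B6/CAST call was lost without either B6/CAST ExE library (edgeR adjusted p = 0.293 and 0.241). The CAST allele thus held more reads in 4 of 4 libraries, and at 63.8% of 47 reads in matDKO/CAST. At Stk31 the CAST allele was also ahead for H3K4me3 in all 4 wild-type libraries of each tissue, with 56.5% and 62.2% in ExE, and the B6 allele was ahead for H3K27me3 in the epiblast, where CAST had 31.5% of 54 and 33.3% of 45 reads, with no call. Dazl had the reverse order, B6 ahead for H3K4me3 in ExE and CAST ahead for H3K27me3 in the epiblast, with no call. These are raw read shares, and the epiblast H3K27me3 libraries as a whole leaned to B6, with paternal shares of 43.5% and 46.0% in B6/CAST and 53.0% and 60.3% in CAST/B6. Of the 36 tested peaks named for members, 13 had the same strain ahead in all 4 wild-type libraries, B6 at 8 and CAST at 5. The share of all peaks with this pattern was not computed.

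In CAST/B6 alone the B6 allele was higher for epiblast H3K27me3 over the starts of Mael (paternal share 57.1%, edgeR adjusted p = 0.0327) and Ddx4 (60.1%, edgeR adjusted p = 0.0276), where 12.9% of peaks were called. Both calls were lost without either CAST/B6 epiblast library. At the Sycp1 start the mother's allele held more epiblast H3K27me3 reads in all 4 wild-type libraries, with a paternal share of 39.7% in each cross and no call (edgeR adjusted p = 0.684 and 0.0545). The Ddx4 gene body had more H3K36me3 on the B6 allele in CAST/B6 ExE (63.2%, edgeR adjusted p = 0.0103), where 2.23% of peaks were called, and a paternal share of 40.9% in B6/CAST (edgeR adjusted p = 0.0531), and its call was lost without either CAST/B6 ExE library. In CAST/B6 alone a call was also made for an ExE H3K27me3 domain 35791 bp from the Tdrd1 start that covers the start of Vwa2 (62.1% paternal in CAST/B6, edgeR adjusted p = 1.24e-08), against 49.7% in B6/CAST.

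**Figure D5:**
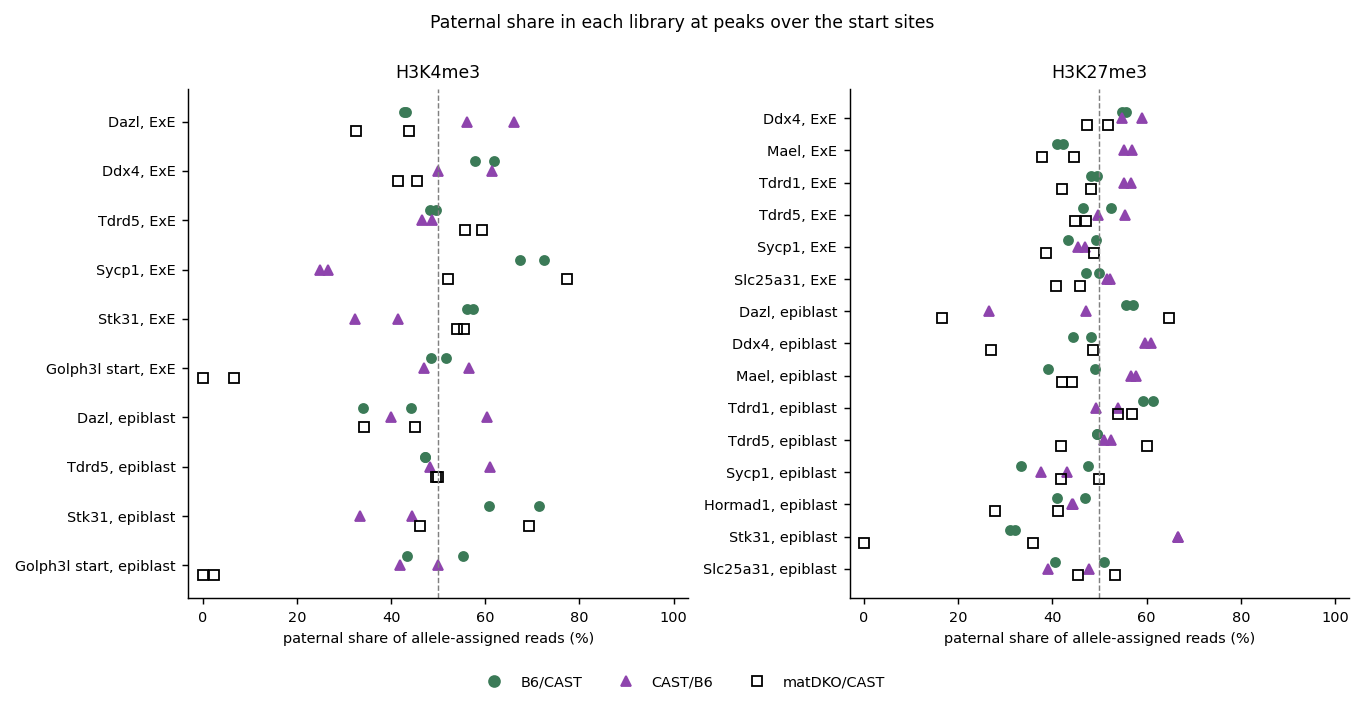
Paternal share of allele-assigned reads in percent, with 1 point per library, at tested peaks named for a member that cover its start, and at the peak named Hormad1 that covers the start of Golph3l. Circles are B6/CAST, triangles CAST/B6 and open squares matDKO/CAST, and the dashed line marks 50%. Circles and triangles on opposite sides of 50% show the same strain ahead in both crosses, as at Sycp1 in ExE for H3K4me3. No strain-specific call was made at Sycp1. The open squares at the Golph3l start lie near 0%.

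The parental shares were also compared between matDKO/CAST and B6/CAST. Only peaks named for members were read out. This leaves out peaks with other names over the starts of Sycp3 and Tdrd1 (H3K4me3) and Hormad1 (ExE H3K27me3). None of the peaks read out over a member start passed. The background of such calls was 0.674% in epiblast and 0.892% in ExE among H3K4me3 peaks, 0.179% and 0.742% among H3K27me3 peaks, and 0.163% and 0.363% among H3K36me3 peaks. The peak that passed in both tissues was named for Hormad1 but lies 27823 bp downstream of its start, at chr3:95587500-95590500, over the start of Golph3l, a gene of the Golgi. Maternal and paternal reads were 81 and 2, and 18 and 0, in the matDKO/CAST epiblast libraries, a paternal share of 1.98% (exact 95% interval 0.241% to 6.97%), against 47.5% in B6/CAST. In ExE the counts were 98 and 7, and 46 and 0, or 4.64% (1.88% to 9.32%), against 50.2%. The interactions were −5.31 and −4.25 on the log2 scale (edgeR adjusted p = 0.000226 and 0.000244). The epiblast call was lost without matDKO/CAST epiblast replicate 1 (−8.79, edgeR adjusted p = 0.569) and the ExE call without B6/CAST ExE replicate 1 (−4.16, edgeR adjusted p = 0.0729). Among the peaks within 500 kb with at least 20 reads in matDKO/CAST, 1 of 24 in the epiblast and 1 of 28 in ExE had a paternal share under 10%, which is this peak. Over all autosomes such a share was found at 140 of 19498 peaks (0.718%) in the epiblast and 166 of 22290 (0.745%) in ExE. In the authors' procedure for matDKO/CAST a second mapping step against a 129 and CAST genome added maternal reads only; its part in this result was not tested.

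Another peak with a skewed share in matDKO/CAST lay beyond the 3′ end of Sycp1, 123100 bp from its start, an epiblast H3K27me3 peak at chr3:102799000-102813000. Its paternal share was 15.0% of 60 reads (edgeR adjusted p = 0.00220 within matDKO/CAST, where 1.97% of peaks were called) against 46.0% of 87 in B6/CAST. The matDKO/CAST libraries as a whole had paternal shares of 41.4% and 42.1%, and the interaction did not pass (−2.15, edgeR adjusted p = 0.588).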

How the data were processed

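Ultra-low-input native ChIP-seq libraries for H3K4me3, H3K27me3 and H3K36me3 came from pooled E6.5 epiblast or ExE, with 2 libraries for each mark in either wild-type cross and in matDKO/CAST. Groups were taken from the labels. The authors trimmed reads with Trim Galore, aligned them with Bowtie2 to GRCm38 and split them by allele at strain variants, and the submitters' processing notes name Trim Galore 0.4.4 and Bowtie2 2.3.2. For matDKO/CAST they left out variants that 129 shares with CAST. They deposited RPKM in 2462755 autosomal windows of 1 kb, counts of maternal and paternal reads per peak, and wild-type peak lists called over both libraries of a group. The deposited score column of the peak lists was not used. In every library 100.0% of RPKM values were whole multiples of 1 read (tolerance 0.05 reads), so reads were recovered for the count tests. Depth was 2.09 to 22.9 M reads for ChIP (M, 1e6), and 0.294 to 7.54 M allele-assigned reads per library. Low depth limits the lowest promoters most.

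Promoter RPKM was averaged over windows within 1 kb of the GENCODE start, and H3K36me3 over gene bodies. Differences were tested with limma 3.58.1 (trend) on log2(RPKM + 0.5), in 1 fit of 12 libraries per mark, with Benjamini-Hochberg adjustment over all features and a threshold of 0.05. Allelic reads were tested with edgeR 4.0.16 quasi-likelihood fits (TMM factors, at least 20 reads in a wild-type allele column) per cross, and matDKO/CAST against B6/CAST as an interaction. Alternatives used edgeR and DESeq2 1.42.0 on recovered reads, quantile normalization, other pseudocounts, filters and windows, single crosses, replicate blocks and leaving out each library. The fits were tested on simulated data. Analyses ran in R 4.3.3 and Python 3.11.15.

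All 10 members were described, every peak named for them entered the counts, each such peak with a call is given with its values, and of each gene list at most the 3 called genes with the largest H3K4me3 difference between the wild-type tissues were named. Members, lists and tests were chosen with earlier results of these data known, and the lists are no independent evidence. Same-numbered H3K4me3 libraries deviated together (correlations 0.53, 0.50 and 0.36 over promoters in the 3 crosses), so blocked values stand beside the H3K4me3 results they change. The block gives each replicate number 1 effect over all crosses, so it does not model pairs within a cross. RNA, DNA methylation and matDKO/CAST peak lists were not analysed here.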

Additional observations from a re-analysis of the deposited data

Results flagged for a closer look

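The H3K36me3 level of the Tdrd1 gene body in B6/CAST epiblast replicate 2 stood apart from the other wild-type epiblast libraries, at 0.4804 RPKM against 0.3689 to 0.3855. The gap took 0.851 of the range of the 4 libraries, in 1 of 60 groups examined, and chance gives such a gap in about 1 of 20 groups.

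At the H3K4me3 peak named for Hormad1 that covers the start of Golph3l, the paternal share differed between matDKO/CAST and B6/CAST in the epiblast (interaction −5.313 on the log2 scale, edgeR adjusted p = 0.000226) and in ExE (−4.251, edgeR adjusted p = 0.000244). The 2 tissues have different B6/CAST and matDKO/CAST libraries. The peak at the Hormad1 start in ExE had too few allele-assigned reads to be tested.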

How the results depend on the processing

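Depth limits the low promoters, such as Mael, and 2 libraries per group limit every matDKO/CAST comparison. Alternatives changed how many of the 10 members passed. For H3K4me3 between the tissues in wild type the count of 1 became 2 with a pseudocount of 1, a mean of at least 0.5 RPKM, DESeq2 or the transcript start with the most H3K4me3, 3 with quantile normalization or edgeR on library totals, 4 with edgeR and TMM factors, and 0 in either cross alone. Leaving out single libraries gave 0 to 4. In matDKO/CAST the count of 1 became 0 with a pseudocount of 0.1 or only the start window, 2 with a mean of at least 0.5 RPKM and 4 with quantile normalization, and 0 to 1 without single libraries. For H3K27me3 the wild-type count of 3 became 1 in either cross alone. The matDKO/CAST count of 0 became 1 with quantile normalization, edgeR with TMM factors and DESeq2, and the epiblast count of 0 for matDKO/CAST became 1 against both wild-type crosses. For H3K36me3 the wild-type count of 4 became 1 with quantile normalization, where Sycp3 turned to −0.0012, and 0 in CAST/B6 alone. The matDKO/CAST count of 4 became 0 with quantile normalization, 2 with DESeq2 and 0 to 4 without single libraries. The strain-specific count of 1 for ExE H3K27me3 became 0 with DESeq2 and 0 to 1 without single libraries, and both H3K4me3 interaction counts of 1 became 0 to 1. One edgeR fit over both wild-type crosses, chosen after the data were seen, changed none of the allelic counts. The cause of these changes was not tested.

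With the replicate block, the H3K4me3 count was 2 in wild type and 0 in matDKO/CAST. For H3K27me3, where same-numbered libraries correlated at 0.097, 0.056 and −0.165, the replicate block gave 5 members lower in wild type (Dazl, Ddx4, Mael, Stk31 and Slc25a31), beside 2785 lower and 2036 higher of 20625 promoters. Over all alternatives 387 counts stayed within 1.5 times of the value reported and 47 did not. Of the values of single genes or peaks, 3774 kept their direction and side of the threshold, 329 changed sign without passing under either setting, 90 lost the threshold, 33 gained it and 1 that had passed changed sign.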
